A study of Mus musculus with 2 samples.

Results

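Ccl3-high lung neutrophils are 244 of the 1756 lung barcodes in a neutrophil gate and of 10437 barcodes kept in both libraries together. They were picked by their counts of unique molecular identifiers (UMIs, each tagging 1 captured RNA molecule) as neutrophils with at least 10 UMIs of Ccl3, no UMI of Siglecf and fewer than 3 UMIs of Retnlg. They made up 13.9% of the lung gate [12.3% to 15.6%] and 2.98% of the 8194 lung barcodes kept. The reference for each value is the 1512 other barcodes of the same gate. The study made 1 single-cell library from lung and 1 from gastrocnemius muscle, each of cells held on CD45 magnetic beads, with the 10x Genomics Chromium 5' v2 kit. Both libraries are labelled TB mice and CAC mouse model, and the labels of these libraries give no treatment, age, strain, number of mice or untreated control. The members and the barcodes they are set against therefore share library, mice, tissue, bead selection and a digestion of 2 h at 37°C, and no condition separates them. There was no replicate, so no test was made. Brackets hold exact 95% intervals that cover counting error only, and a level is counts per 1000000 (CPM), the summed UMIs of a gene per 1000000 summed UMIs of the group.

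Neutrophils are short-lived granulocytes that carry ready-made antimicrobial granules and can still transcribe cytokine and chemokine genes once they reach a tissue. Ccl3 and Ccl4 (MIP-1α and MIP-1β) are secreted CC chemokines that draw monocytes, macrophages and T cells. Cxcl1, Cxcl2 and Cxcl3 bind Cxcr2, the receptor that draws neutrophils themselves. Cd274 encodes PD-L1, a ligand that restrains T cells through PD-1.

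Each step of the selection removed part of the lung library. Of 8481 deposited barcodes, 8194 had at least 200 genes and at most 10% mitochondrial UMIs. S100a8 plus S100a9, neutrophil calprotectin genes, took at least 0.5% of UMIs in 2265 of them. At least 1 UMI of Csf3r, Cxcr2, Il1r2 or Mmp9 left 2042, and at most 1 UMI of C1qa, C1qb, C1qc, Cd79a and Cd3e together left the 1756 of the gate. Of these, 1390 had no Siglecf UMI, 1133 of the 1390 had under 3 Retnlg UMIs, and 244 of the 1133 had at least 10 Ccl3 UMIs. The gate thus splits without overlap into the 244 Ccl3-high barcodes, 366 Siglecf-positive barcodes, 257 Retnlg-high barcodes and 889 Ccl3-low barcodes. Members held 726590 UMIs with a median of 2415 per barcode (536 to 21254), against 3815815 UMIs and a median of 2061 (505 to 24214) in the other gate barcodes. The median number of genes was 1030.5 in members and 893.5 in the others, and mitochondrial genes took 0.931% and 1.01% of UMIs. Of the barcode sequences of members, 2 also occurred in the muscle library.

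Markers the rule had not used were set beside the neutrophil label. The 8 such neutrophil markers summed to 12166 CPM in Ccl3-high barcodes and 14684 CPM in the other gate barcodes, and to 1066 CPM in lung barcodes rich in C1q (the macrophage gate). Of the 8, 1 had a log2 ratio of members over the others above 0 and 1 was at least 2-fold lower, with a median of -0.15. The 12 macrophage markers outside the rule summed to 1376 CPM in members and 1501 CPM in the other gate barcodes, against 12082 CPM in the macrophage gate. The contrast with the macrophage gate is partly fixed by the choice, since C1q counts picked that gate and were limited in the neutrophil gate. Basophil and mast cell markers summed to 5.51 CPM, with Prss34, Cpa3, Ms4a2, Fcer1a, Gata2, Il4, Mcpt4 and Tpsb2 at 0. The eosinophil genes Epx, Prg2 and Il5ra and the T and NK cell genes Cd3g, Cd4, Nkg7, Klrb1c and Ncr1 were also at 0 in members. Markers of migratory dendritic cells summed to 946 CPM in members and 861 CPM in the others. Conventional dendritic cell markers summed to 106 CPM and 172 CPM, and monocyte markers to 482 CPM and 533 CPM. Pecam1, an adhesion molecule of endothelium and leukocytes, had 88.1 CPM in members and 30.9 CPM in the others, while the other endothelial markers Cdh5, Cldn5, Kdr and Egfl7 were at 0 in members. Ly6g, the surface marker used to stain mature mouse neutrophils, had 2 UMIs over all members together. The other gate barcodes held 112, with 94 in Retnlg-high, 10 in Siglecf-positive and 8 in Ccl3-low barcodes.

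Ccl3 itself chose the members, so its level is a description. A member held between 10 and 250 Ccl3 UMIs with a median of 22, with quartiles of 15 and 36. Ccl3 took a median of 1.02% of a member's UMIs, from 0.132% to 5.54%. Summed, Ccl3 stood at 10669 CPM [10433 to 10909] in members and 1795 CPM in the other gate barcodes. The 244 members held 26.9% of all Ccl3 UMIs of the kept lung library, although they were 2.98% of its barcodes. Counts did not fall into separate classes at the threshold, since 25 barcodes held 10 or 11 UMIs and 50 otherwise eligible barcodes held 8 or 9.

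**Figure D1:**
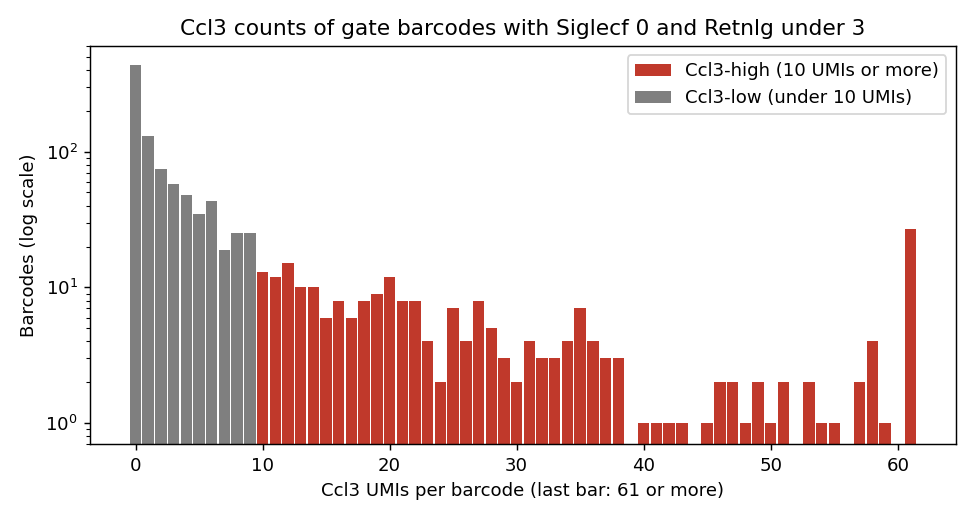
Barcodes (log axis) by Ccl3 UMI count among the 1133 gate barcodes with no Siglecf UMI and under 3 Retnlg UMIs. The 244 Ccl3-high barcodes (red) continue the tail of the 889 Ccl3-low barcodes (grey) without a gap at 10 UMIs, and the last bar gathers counts of 61 and above.

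High Ccl3 was not limited to the members. At least 10 Ccl3 UMIs also occurred in 113 of 366 Siglecf-positive barcodes (30.9%) [26.2% to 35.9%] and in 36 of 257 Retnlg-high barcodes (14.0%) [10.0% to 18.9%], so that 393 gate barcodes reached the count in all. Outside the gate it occurred in 64 of 957 macrophage-gate barcodes (6.69%), 15 of 489 T-gate barcodes (3.07%), 4 of 212 epithelial-gate barcodes (1.89%) and 6 of 389 B-gate barcodes (1.54%). The muscle library had 52 barcodes in the gate, with 43 Ccl3 UMIs in all and at most 9 in any of them. None of the 52 met the full rule. A floor of 3 barcodes would be 5.77% of the 52, which is not an exact limit.

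Ccl4, the gene next to Ccl3 in RefSeq's order on chromosome 11 and not part of the rule, was the chemokine that stood furthest from the other gate barcodes. It had 5980 CPM [5803 to 6160] in members and 1399 CPM [1362 to 1437] in the others, a log2 ratio of 2.10 [2.04 to 2.15]. Its level was 2070 CPM in Siglecf-positive, 1383 CPM in Retnlg-high and 958 CPM in Ccl3-low barcodes. After each barcode was thinned to 1000 UMIs, a Ccl4 UMI was seen in 60.2% [53.6% to 66.5%] of 236 members and in 23.9% [21.6% to 26.3%] of 1321 other gate barcodes, with 8 and 191 shallower barcodes left out. Lung B-gate barcodes, which should lack most neutrophil RNA, showed Ccl4 in 6.01% at that depth and S100a8 in 21.1%. Because the B gate is itself a choice of barcodes, these shares are not a measured level of free RNA in the neutrophil gate. Median depth before thinning was 2415 UMIs in members and 2649 UMIs in the B gate.

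Ccl4 was uneven among the members themselves. A member held 0 to 181 Ccl4 UMIs with a median of 5, and 84 of 244 members held none although each had at least 10 Ccl3 UMIs. In 48 members Ccl4 exceeded Ccl3. The ratio of Ccl4 to Ccl3 UMIs was 0.561 over all members, with a median of 0.179 per barcode, against 0.700 over Siglecf-positive, 0.682 over Retnlg-high, 1.05 over Ccl3-low and 1.41 over macrophage-gate barcodes. Because members were picked by Ccl3, a low ratio in them is partly fixed by the choice. Spearman's rho between Ccl3 and Ccl4 counts was 0.28 over the 244 barcodes, and 0.26 between their shares of UMIs, in barcodes that share library and depth. A comparison chosen after the values were seen set Ccl4 beside the other genes within 1.5-fold of its level in members. Of these 14 genes, Ccl4 included, H3f3b (a histone gene) was missing from 1 member, Cebpb (a myeloid transcription factor) from 6, Nfkbia from 33, G0s2 (an inhibitor of fat breakdown) from 35, Cxcl3 from 74 and Ccl4 from 84. The 25 members richest in Ccl4 held 53.3% of its UMIs, whereas the 25 richest in Ccl3 held 30.8% of Ccl3 and the 25 richest in Fth1 (ferritin heavy chain) held 27.3% of Fth1.

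**Figure D2:**
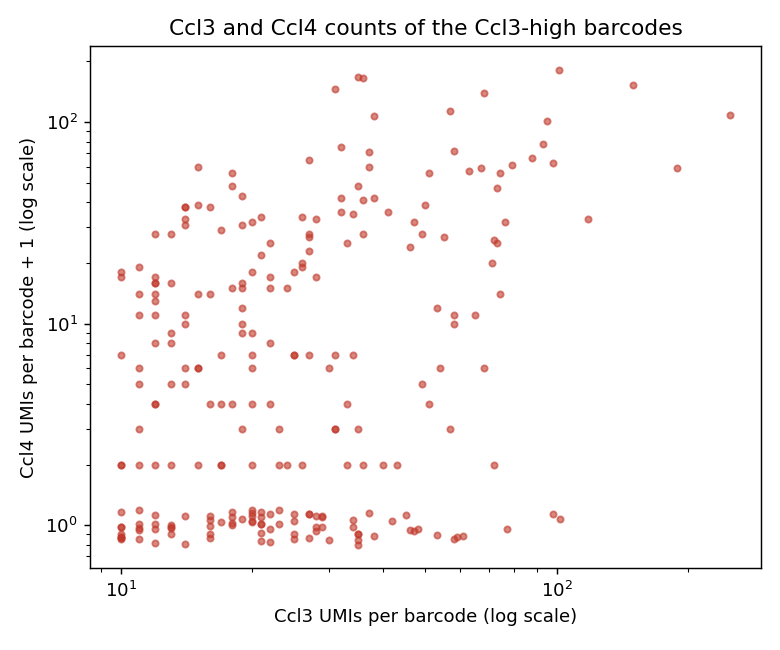
Ccl3 UMIs (x, log axis) against Ccl4 UMIs plus 1 (y, log axis) in the 244 Ccl3-high barcodes, 1 point each. The 84 members without Ccl4 form the row at the bottom, spread slightly up and down to be visible, and hold 10 to 102 Ccl3 UMIs with a median of 21, against 10 to 250 and a median of 24 in the 160 members with Ccl4.

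Members without Ccl4 were set beside members with at least 10 Ccl4 UMIs, with those in between left out, and had similar levels of several genes. Split after the values were seen, the 98 members with at least 10 Ccl4 UMIs and the 84 with none had 33998 and 34766 CPM of Cxcl2, 12520 and 12619 CPM of Il1b, 1091 and 1265 CPM of Cd274, and 1819 and 1607 CPM of Cstb. Inhba stood at 463 CPM [392.3 to 543] with Ccl4 and 285 CPM [220 to 364] without. Gpnmb, a glycoprotein of lysosome-rich phagocytes, stood at 210 CPM [164 to 266] and 22.0 CPM [7.13 to 51.2]. Its 92 UMIs over all members sat in 14 barcodes with at most 18 UMIs each, a spread the intervals do not cover. Median depth was 2916 UMIs with Ccl4 and 2277.5 UMIs without, and its part in these differences was not tested.

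Of the CXC chemokines, Cxcl2 was the most abundant in members. A member held 0 to 567 Cxcl2 UMIs with a median of 76, and 243 of 244 held at least 1. Cxcl2 had 33017 CPM [32601 to 33438] in Ccl3-high and 16996 CPM in the other gate barcodes, a log2 ratio of 0.96 [0.94 to 0.98], just under 2-fold. Cxcl3 had 5304 CPM and 2548 CPM (log2 ratio 1.06 [1.00 to 1.11]), and Cxcl1 132 CPM and 51.1 CPM (1.37 [1.00 to 1.73]). Cxcl1 came from few barcodes, 28 members with 1 to 17 UMIs. Of 6 measured CXC chemokines, 2 were at least 2-fold higher and 0 lower, with a median log2 ratio of 0.68. A gene is measured if it held at least 30 UMIs in either group, and counted as higher or lower if its CPM differed at least 2-fold with at least 30 UMIs in the higher group. Over all 7578 genes measured, 0.686% were higher and 9.49% lower in members, and the median log2 ratio was -0.17. Cxcl10, a chemokine induced by interferon, had 34.4 CPM in members and 59.0 CPM in the others.

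Other CC chemokines went both ways. Of 10 measured, Ccl3 left out, 5 had a log2 ratio above 0, 1 was higher (Ccl4) and 2 were lower, with a median of 0.01. A minimum of 50 CPM, chosen after the data were seen, left fewer genes, Ccl4 among them. Above 0 were then 3 of 3 against Siglecf-positive, 1 of 4 against Retnlg-high and 3 of 4 against Ccl3-low barcodes. Ccl6, a chemokine abundant in mouse myeloid cells, had 3837 CPM in members and 3213 CPM in the others. Ccl2, which draws monocytes through Ccr2, had 45.4 CPM and 22.8 CPM, short of 2-fold. The lower genes were Ccl17 (41.3 and 84.9 CPM), a ligand of Ccr4, and Ccl12 (4.13 and 9.70 CPM, 3 UMIs in members), another ligand of Ccr2.

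Promoter sequence is shown for the gene that defines the members and for the 3 Cxcl genes that lie near each other on chromosome 5. The sequences are RefSeq promoters of build GRCm38.p6, whereas the counts were made on GRCm39, so the coordinates belong to the sequences only. The Ccl3 stretch is the 250 bases before the start site at chr11:83649379-83649628, minus strand. Searched on both strands, it held no match to the NF-κB-like motif GGGNNNNNCC, which 51.8% of 21263 promoters of that length hold. The C/EBP-like TTGCNNAA (in 9.09% of promoters) and the CREB and ATF-like TGACGT (7.37%) were not found in it either. Nor did it hold an AP-1-like motif, written TGANTCA (6.13% of promoters). The TATA box letters TATAAA, present in 11.6% of promoters, were also not found. The Cxcl1, Cxcl2 and Cxcl3 windows, all plus strand, hold an identical GGGAATTTCC, given in capitals, which 21 of the 21263 promoters carry (0.0988%). It is the first match to the NF-κB-like motif that these 3 promoters share, and its first base lies at -71 in Cxcl1, -97 in Cxcl2 and -73 in Cxcl3 counted from the start site. GGGAATTTCC was picked because these 3 promoters share it, so its share of 0.0988% is a description and not a test. These genes and motifs were picked after the values were seen, and 15 of the 17 genes looked for were in the table. Ccl4 was not among them. A match is a run of letters and not a measured binding site.
Ccl3: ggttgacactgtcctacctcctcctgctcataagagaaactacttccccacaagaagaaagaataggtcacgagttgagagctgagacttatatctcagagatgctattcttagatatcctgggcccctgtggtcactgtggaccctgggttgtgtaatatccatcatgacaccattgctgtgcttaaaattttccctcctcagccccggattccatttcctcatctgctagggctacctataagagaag
Cxcl1 at chr5:90891149-90891208: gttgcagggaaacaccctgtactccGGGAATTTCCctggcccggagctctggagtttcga
Cxcl2 at chr5:90903777-90903836: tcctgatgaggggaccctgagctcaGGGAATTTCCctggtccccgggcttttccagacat
Cxcl3 at chr5:90786003-90786062: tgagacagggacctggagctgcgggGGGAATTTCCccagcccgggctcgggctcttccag

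Cytokines beyond the chemokines differed by gene. Tnf, the founding TNF family cytokine, had 588 CPM [533 to 646] in Ccl3-high and 252 CPM [236 to 269] in the other gate barcodes, a log2 ratio of 1.22 [1.05 to 1.39]. It was seen in 96 of 244 members, and the 25 richest held 66.0% of its UMIs. Il1a and Il1rn, the alarmin IL-1α and the IL-1 receptor antagonist, stood just under 2-fold, with 855 CPM against 458 CPM for Il1a (0.90 [0.77 to 1.03]) and 2442 CPM against 1229 CPM for Il1rn (0.99 [0.91 to 1.07]). Il1b was nearly level at 12722 CPM in members and 12374 CPM in the others (0.04 [0.01 to 0.07]). Nlrp3, the sensor of the inflammasome that matures IL-1β, had 1078 CPM and 693 CPM. Of 9 measured genes of the IL-1 list 0 were past 2-fold either way, with a median of 0.30, and of 9 in the TNF list 1 was higher (Tnf) and 0 lower, with a median of 0.29.

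Across all measured genes, 52 were at least 2-fold higher in Ccl3-high barcodes and 719 lower. The groups differ about 5-fold in UMIs, so a gene at a low level reaches 30 UMIs more easily in the larger group. With a minimum of 50 CPM instead, set after the data were seen, 44 of 2901 genes were higher (1.52%) and 82 lower (2.83%). All 52 higher genes had log2 ratios above 0 against each of the 3 other gate groups taken alone. The genes were picked against the pool of these groups, so this is largely fixed by the choice. Of the 52, 43 were at least 2-fold above Siglecf-positive, 47 above Retnlg-high and 37 above Ccl3-low barcodes.

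After Ccl4, the largest ratios among genes with at least 100 UMIs were those of Slc31a2, Rps6ka2, Rab15 and Mreg. Slc31a2, a copper transporter of endosomes and lysosomes, had 171 CPM [142 to 203] in members and 50.3 CPM [43.4 to 58.0] in the others (log2 ratio 1.76 [1.42 to 2.10]). Rps6ka2, a kinase of the RSK family downstream of ERK, had 234 CPM and 70.2 CPM (1.74 [1.45 to 2.02]), and its Siglecf-positive level was 39.2 CPM. Rab15, a small GTPase of endosome recycling, had 138 CPM and 44.0 CPM (1.64 [1.27 to 2.01]). Mreg, melanoregulin, which takes part in moving lysosome-related organelles, had 202 CPM and 68.7 CPM (1.56 [1.26 to 1.86]). After thinning, Mreg was seen in 14.8% of members and 6.59% of the others, and Rab15 in 11.02% and 4.39%, against 2.35% and 0.522% of B-gate barcodes. Fnip2, a partner of folliculin in nutrient sensing at the lysosome, had 288 CPM and 121 CPM, and Ralgds, an activator of Ral GTPases, 178 CPM and 80.7 CPM. Fam71f2 (173 and 72.1 CPM) directly neighbours Hilpda in RefSeq's gene order. Gpr137b-ps (143 and 52.9 CPM) is named as a pseudogene and may share reads with its parent gene, and Ptgs2os2 (150.02 and 65.8 CPM) lies opposite Ptgs2, whose reads cannot be told apart from it where counting by strand is not stated.

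**Figure D3:**
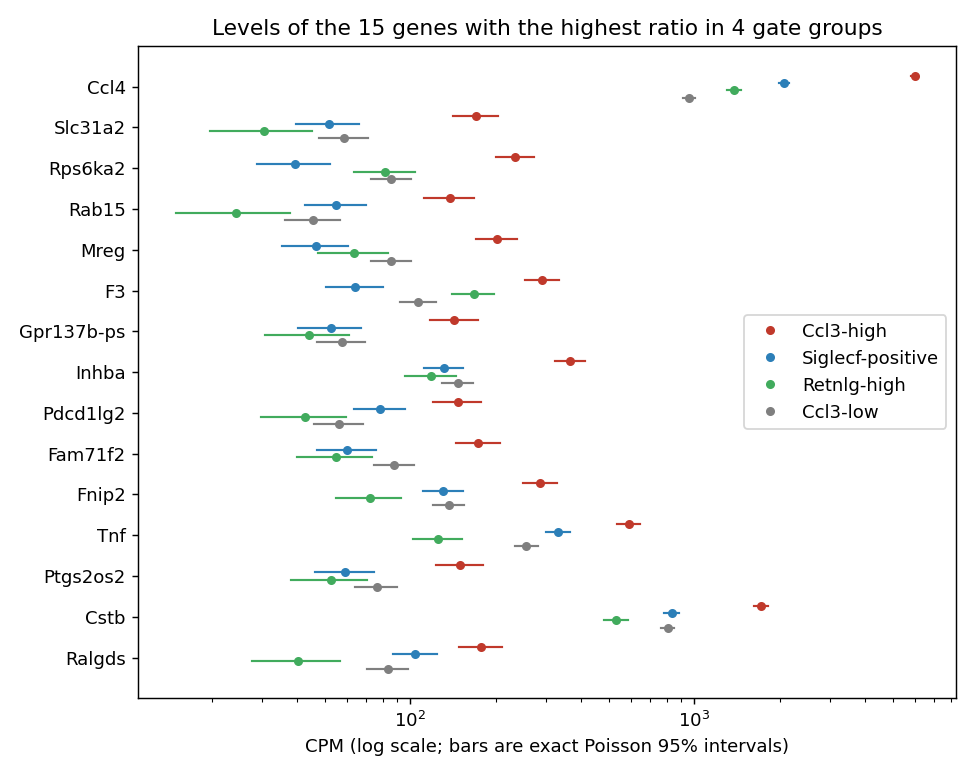
CPM (log axis) of the 15 genes with the highest ratio over the other gate barcodes, in Ccl3-high, Siglecf-positive, Retnlg-high and Ccl3-low barcodes from top to bottom within each gene, with exact Poisson 95% intervals. Ccl3-high barcodes, which the choice of genes favours, are highest for all 15 genes, from 138 CPM for Rab15 to 5980 CPM for Ccl4. The order of the other 3 groups changes from gene to gene.

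Among secreted factors, Inhba stood apart. It encodes the subunit of activin A, a TGF-β family hormone, and had 366 CPM [323 to 413] in members and 136 CPM [125 to 148] in the others (log2 ratio 1.43 [1.21 to 1.64]). It came from 57 members with up to 30 UMIs each, and the 25 richest held 81.6% of its UMIs. F3, tissue factor, which starts blood coagulation, had 292 CPM and 106 CPM (1.46 [1.21 to 1.70]) and was seen in 77 members with up to 13 UMIs. Hbegf, a membrane-bound EGF receptor ligand, had 467 CPM and 258 CPM (0.85 [0.67 to 1.03]). Vegfa, the endothelial growth factor, had 446 CPM and 356 CPM, and was higher still in Siglecf-positive barcodes at 492 CPM. Of 15 measured genes in the list of secreted factors 1 was higher (Inhba) and 0 lower, with 12 of 15 log2 ratios above 0 and a median of 0.32. Osm and Thbs1, a cytokine of the IL-6 family and a matrix glycoprotein, stood below the others at 980 CPM against 1092 CPM and 1324 CPM against 1443 CPM.

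The PD-1 ligands were both higher, by different amounts. Cd274 was seen in 174 of 244 members with a median of 2 and at most 25 UMIs. It had 1140 CPM [1063 to 1220] in Ccl3-high and 728 CPM [701 to 756] in the other gate barcodes, a log2 ratio of 0.65 [0.53 to 0.76], under 2-fold. Its level was 665 CPM in Siglecf-positive, 559 CPM in Retnlg-high and 847 CPM in Ccl3-low barcodes. Members held 6.67% of the Cd274 UMIs of the kept lung library. Pdcd1lg2 (PD-L2), next to Cd274 on chromosome 19, was scarcer and differed more, with 147 CPM [121 to 178] and 60.3 CPM [52.7 to 68.6], a log2 ratio of 1.29 [0.94 to 1.63]. It was seen in 70 members with at most 3 UMIs each. Thinned, Cd274 was present in 51.7% of members [45.1% to 58.2%] and 39.5% of the others [36.9% to 42.2%], and Pdcd1lg2 in 15.7% [11.3% to 21.0%] and 6.13% [4.90% to 7.56%]. B-gate barcodes, which can express both ligands, showed 17.2% and 3.92%. Of 11 measured checkpoint ligands 1 was higher (Pdcd1lg2) and 0 lower, with a median of 0.08. Cd80, a costimulatory ligand that also binds PD-L1, was nearly level at 610 CPM and 616 CPM.

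Most lysosomal genes of the list had higher levels in members. Of 19 measured, 16 had a log2 ratio above 0, 2 were at least 2-fold higher and 0 lower, and the median was 0.56 beside -0.17 over all genes. Atp6v0d2, a subunit of the proton pump that acidifies lysosomes, had 136 CPM in members and 53.2 CPM in the others (log2 ratio 1.36 [1.00 to 1.71]). Its partner subunits Atp6v0c (2060.3 and 1272 CPM) and Atp6v1a (385 and 240.6 CPM) stayed under 2-fold. The tetraspanin Cd63 had 725 CPM and 452 CPM, Psap, the precursor of the saposins that help digest sphingolipids, had 1160 CPM and 778 CPM, and Mitf, a transcription factor that drives lysosome genes, had 150.02 CPM and 98.5 CPM. Gpnmb had the largest ratio of the list, 127 CPM against 23.6 CPM (2.42 [1.99 to 2.86]), but its 92 UMIs sat in 14 members with at most 18 UMIs each. The macrophage gate, where many of these genes are abundant, had 200 CPM of Gpnmb, 4395 CPM of Psap and 762 CPM of Cd63. Macrophage markers outside the rule summed to 1376 CPM in members and 1501 CPM in the other gate barcodes. At least 1 UMI of them was seen in 86.1% of members and 80.5% of the others. The part of macrophage RNA in the lysosomal levels was not tested.

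Cathepsins and their inhibitors did not all go one way. Cstb, cystatin B, an intracellular inhibitor of cysteine cathepsins, had 1724 CPM [1630 to 1823] in members and 757 CPM [729 to 785] in the others (log2 ratio 1.19 [1.09 to 1.28]), with a median of 3 UMIs per member. Ctsb, the cysteine protease cathepsin B, had 762 CPM and 352 CPM (1.11 [0.97 to 1.26]), and Ctsz 512 CPM and 274 CPM (0.90 [0.73 to 1.08]). Ctsl, cathepsin L, the protease named in the title of the study, had 388 CPM [344 to 436] in members and 293 CPM [276 to 310] in the others (0.41 [0.21 to 0.60]). It was seen in 129 of 244 members with at most 14 UMIs, and its level was 322 CPM in Siglecf-positive, 266 CPM in Retnlg-high and 286 CPM in Ccl3-low barcodes. Cst3, the secreted cystatin C, went the other way with 1043 CPM and 1830 CPM (-0.81 [-0.92 to -0.70]). Of 16 measured genes of the list 2 were higher and 3 lower, and the median was -0.09. The 3 lower genes were the stefins Stfa1 and Stfa2, near-identical copies whose reads may be split, and Ctsk (6 UMIs in members). Both stefins were highest in Retnlg-high barcodes, which the rule kept out, and Stfa1 had 19.3 CPM in members and 15.03 CPM in Ccl3-low barcodes (0.36 [-0.69 to 1.34]). Ctsk had a log2 ratio of 0.17 [-1.73 to 2.08] against Retnlg-high barcodes and of 0.04 when members were taken from 5 Ccl3 UMIs.

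Ferritin and heme genes were more abundant without reaching 2-fold. Fth1 was the most abundant of them at 52561 CPM in members and 34053 CPM in the others (log2 ratio 0.63 [0.61 to 0.64]). Ftl1, the ferritin light chain, had 6795 CPM and 4182 CPM (0.70 [0.65 to 0.75]), and Hmox1, which breaks down heme, had 308 CPM and 170 CPM (0.86 [0.63 to 1.08]). Nfe2l2, encoding the redox regulator Nrf2, was lower at 345 CPM and 453 CPM. Of 15 measured genes of iron and redox 0 were past 2-fold, with a median of 0.15.

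Hypoxia and glycolysis genes leaned the same way. Of 24 measured, 21 had a log2 ratio above 0, 0 were at least 2-fold higher and 1 was lower, with a median of 0.31. Over all measured genes the median was -0.17, with quartiles of -0.51 and 0.14. With a minimum of 50 CPM the all-gene median was -0.10, with quartiles of -0.35 and 0.15. Hk2, the inducible hexokinase, had 489 CPM in members and 262 CPM in the others (0.90 [0.72 to 1.08]), Bnip3, a mitophagy receptor, 405 CPM and 222 CPM (0.87 [0.67 to 1.06]), and Ldha, lactate dehydrogenase A, 1248 CPM and 783 CPM (0.67 [0.56 to 0.78]). Slc2a3, a glucose transporter, was the lower gene at 39.9 CPM and 83.1 CPM, and Hif1a itself had 339 CPM and 407 CPM. The log2 ratio of Slc2a3 was -2.37 against Retnlg-high barcodes, which the rule kept out, and reached -0.30 among the alternatives. Hilpda, which blocks fat breakdown at lipid droplets and is known to be induced by hypoxia, was past 2-fold with 1697 CPM [1604 to 1794] and 774 CPM [746 to 802] (1.13 [1.04 to 1.23]). In the list of lipid droplet and cholesterol genes 1 of 17 was higher (Hilpda) and 2 were lower, with a median of 0.07. Plin2, which coats lipid droplets, had 771 CPM and 569 CPM.

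**Figure D4:**
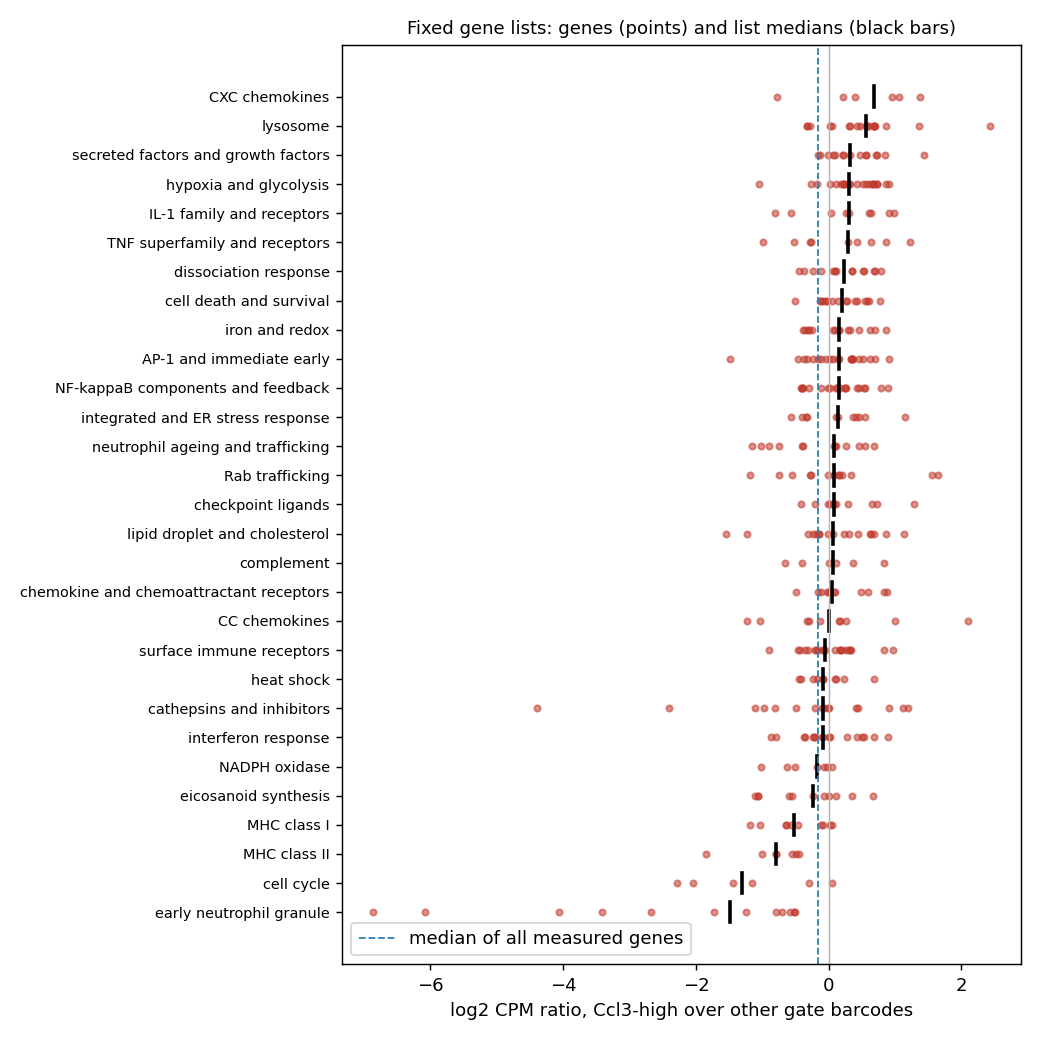
Log2 CPM ratio of Ccl3-high over the other gate barcodes for each measured gene (points) of the 29 gene lists, with list medians (black bars) and the median of all measured genes (dashed line, -0.17). CXC chemokines (0.68) and lysosome genes (0.56) have the highest medians and early neutrophil granule genes (-1.48) the lowest.

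Inducible transcription factors and NF-κB feedback genes differed gene by gene. Nfkbia, the inhibitor that NF-κB itself induces, had 4734 CPM in members and 2758 CPM in the others (log2 ratio 0.78 [0.72 to 0.84]). Tnfaip3, the feedback enzyme A20, had 654 CPM and 352 CPM (0.89 [0.74 to 1.04]). The subunit genes Rela (70.2 and 69.2 CPM), Nfkb1 (524 and 569 CPM) and Rel (128 and 170 CPM) were level or lower. Of 20 measured NF-κB genes 0 were past 2-fold, with a median of 0.15. Of 22 AP-1 and immediate early genes 0 were higher and 1 was lower (Fosl1, 3 UMIs in members), with a median of 0.15. Maff (250.5 and 133 CPM) and Egr1 (1342 and 935 CPM) were higher, whereas Fos (790 and 1019 CPM) and Junb (4529 and 4895 CPM) were lower. Warm digestion is known to induce genes of this kind. The 14 genes of the dissociation list summed to 23179 CPM in members and 18680 CPM in the others, with 0 past 2-fold and a median of 0.23, and their part in the chemokine levels was not tested.

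Granule genes that neutrophils make early in their development were lower in members. All 12 measured genes of the early granule list had a log2 ratio below 0, 7 were at least 2-fold lower, and the median was -1.48. Camp, the cathelicidin peptide, had 4 UMIs in members (5.51 CPM) and 2446 UMIs in the others (641 CPM), and Ngp, another granule protein, had 6 UMIs (8.26 CPM) and 2125 UMIs (557 CPM). Camp was seen in 4 of 244 members (1.64%) and in 32 of 1512 others (2.12%), and 1 Retnlg-high barcode held 1126 of its 2446 UMIs. For Ngp, 1 Retnlg-high barcode held 743 UMIs. Lcn2, lipocalin 2, had 328 CPM and 1081 CPM, and Ltf, lactoferrin, 107 CPM and 254 CPM. These genes were highest in the Retnlg-high barcodes, which the rule kept out of the members, so the direction is largely fixed by the choice. Retnlg-high barcodes had 2825 CPM of Camp, 2359 CPM of Ngp and 3162 CPM of Lcn2. Against Ccl3-low barcodes alone, Camp was at 5.51 CPM in members and 8.35 CPM, Ngp at 8.26 CPM and 27.3 CPM, and Lcn2 at 328 CPM and 452 CPM. Ltf went the other way there, with 107 CPM in members and 66.8 CPM in Ccl3-low barcodes. Cstdc5, a stefin-like gene of a family of close copies, had no UMI in members and 369 UMIs in the others. On a floor of 3 counts its log2 ratio was -4.55, and the exact upper limit was -4.24.

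Prss2, Adamdec1, Ikzf2, Rogdi and Otulinl, also among the 15 lowest ratios, were not highest in Retnlg-high barcodes. Prss2, a trypsinogen, had 9.63 CPM in members, 154 CPM in Siglecf-positive, 17.1 CPM in Retnlg-high and 59.0 CPM in Ccl3-low barcodes. Adamdec1, a secreted metalloprotease-like protein, had 5.51, 84.2, 13.4 and 46.2 CPM in the same order. Ikzf2, the transcription factor Helios, had 0 UMIs in members and 103 UMIs in the others. Glul, glutamine synthetase, had 9.63 CPM in members and 28.3, 61.05 and 53.4 CPM in Siglecf-positive, Retnlg-high and Ccl3-low barcodes, and Rogdi and Otulinl were likewise under 10 CPM in members at 6.88 and 9.63 CPM. These levels rest on few UMIs, 7 for Prss2, Glul and Otulinl, 5 for Rogdi and 4 for Adamdec1.

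Members were also set against each of the 3 other gate groups. Against Siglecf-positive barcodes, 73 of 4833 genes were higher in members (1.51%) and 439 lower (9.08%). Cxcl3 (5304 and 1264 CPM), F3 (292 and 64.2 CPM), Mreg (202 and 46.7 CPM) and Rps6ka2 (234 and 39.2 CPM) were among the higher, and Ltc4s, the leukotriene C4 synthase, was lower (89.5 and 332 CPM). Against Retnlg-high barcodes, 348 of 3386 genes were higher (10.3%) and 220 lower (6.5%). Cxcl3 and F3 stayed under 2-fold there, with 3759 CPM and 167 CPM in Retnlg-high barcodes (log2 ratios 0.50 and 0.80). Tnf had 588 CPM in members, 332 CPM in Siglecf-positive, 126 CPM in Retnlg-high and 257 CPM in Ccl3-low barcodes. It was under 2-fold against Siglecf-positive barcodes (log2 ratio 0.83) and past 2-fold against Retnlg-high and Ccl3-low barcodes. The rule separates Ccl3-low barcodes from members by the Ccl3 count alone, and 49 of 5479 genes were higher in members (0.894%) and 296 lower (5.4%) against them. 

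Gene lists were set against each group with a minimum of 50 CPM, chosen after the data were seen. Of 17 lysosomal genes measured, 2 were higher and 0 lower in members than in Siglecf-positive barcodes, with a median log2 ratio of 0.36. With that minimum 1.98% of 3128 genes were higher and 5.08% lower, and the median over all of them was -0.25. Against Retnlg-high barcodes 9 of 17 were higher and 0 lower, with a median of 1.06, where 9.76% of 2797 genes were higher and 6.54% lower with a median of 0.15. Against Ccl3-low barcodes 2 of 17 were higher and 0 lower, with a median of 0.52, where 1.35% of 2892 genes were higher and 2.25% lower with a median of -0.10. The hypoxia and glycolysis list had a median of 0.43 over 23 genes against Ccl3-low barcodes, with 0 past 2-fold. NF-κB genes had a median of 0.00 over 20 genes there.

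Within the gate, several genes followed the Ccl3 count across the threshold. The Ccl3-low barcodes with 0, 1 to 4 and 5 to 9 Ccl3 UMIs and the members with 10 to 19, 20 to 39 and at least 40 numbered 431, 311, 147, 97, 94 and 53. Cstb stood at 534, 882, 1294, 1510, 1793 and 1890 CPM in that order, already more than doubled before the threshold. Ccl4 stood at 408, 1203, 1757, 3714, 5575 and 9395 CPM, and Cxcl2 at 15297, 17214, 21148, 27511, 30787 and 43145 CPM. Inhba was 156 CPM [110 to 214] in members with 10 to 19 Ccl3 UMIs, 359 CPM [293 to 435] with 20 to 39 and 639 CPM [532 to 761] with at least 40. Hilpda in the same 3 classes was 1436, 1497 and 2314 CPM.

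Cd274 did not follow the Ccl3 count in steps. It stood at 861, 873 and 769 CPM in the Ccl3-low classes and at 1108, 1146 and 1170 CPM in the member classes, whose intervals overlap. Il1b was highest at both the bottom of the range and just above the threshold, with 14219, 12816 and 12304 CPM below it and 14576, 11983 and 11500 CPM above. Cst3 lay at 2191, 2322, 1258, 1174, 1153 and 720 CPM and Cxcr2, a gene the gate used, at 440, 323, 275, 263, 188 and 174 CPM. Ctsl lay at 226, 321, 357, 386, 411 and 358 CPM. Median depth was 1619, 1658, 2056, 2233, 2229.5 and 3423 UMIs in these classes, and its part was not tested. When members were split by the share of Ccl3 in their UMIs (under 0.5%, 0.5 to 1% and at least 1%), median depth ran the other way at 3790.5, 2380 and 2031 UMIs. Ccl4 then stood at 1526, 4014 and 10419 CPM, Inhba at 159, 324 and 539 CPM, Cstb at 1306, 1604 and 2098 CPM and Cst3 at 1376, 971 and 860 CPM.

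**Figure D5:**
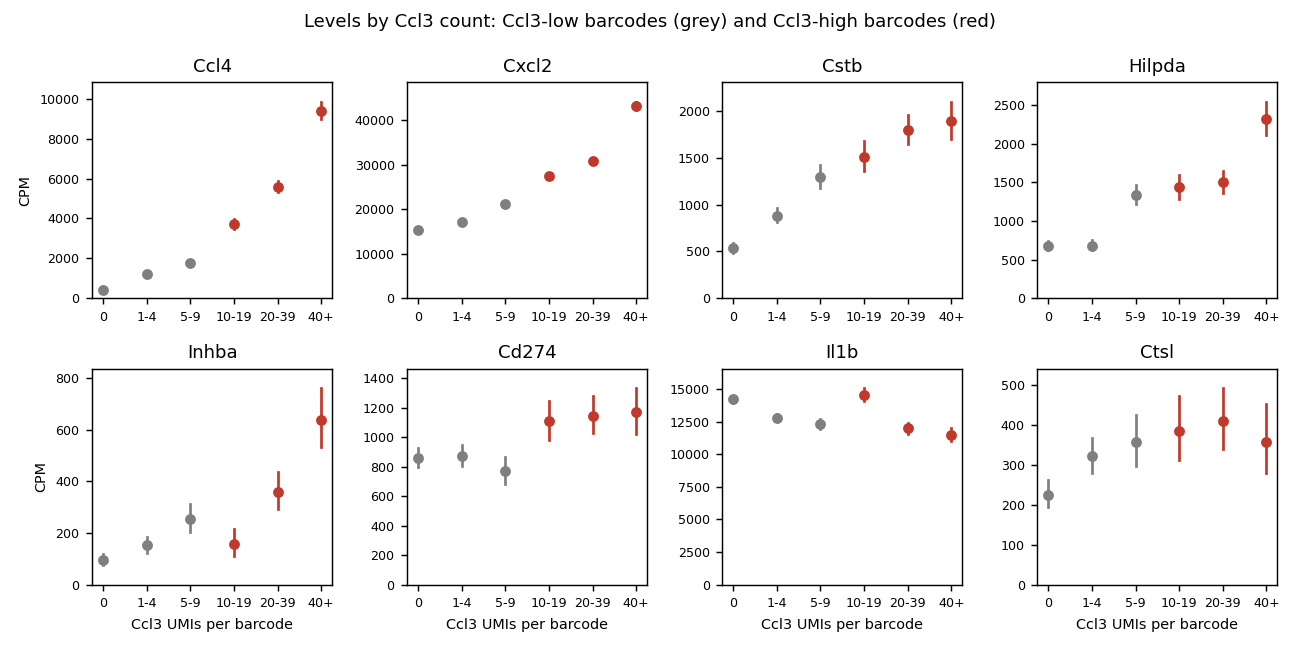
CPM of 8 genes by the Ccl3 UMI count of the barcode, for Ccl3-low barcodes (grey, 0 to 9 UMIs) and Ccl3-high barcodes (red, 10 UMIs and above), each vertical axis starting at 0, with exact Poisson 95% intervals. Ccl4, Cxcl2 and Cstb climb through all 6 classes, Cd274 is higher in the 3 member classes without climbing among them, and Il1b shows no climb.

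Barcodes on either side of the threshold were alike in some genes and not in others. The 25 members with 10 or 11 Ccl3 UMIs and the 50 Ccl3-low barcodes with 8 or 9 had 1641 and 2355 CPM of Ccl4, 2025 and 1813 CPM of Cstb, 1693 and 2097 CPM of Hilpda, 1030 and 773 CPM of Cd274 and 87.3 and 391 CPM of Mreg. These are descriptions of small sums, 94 Ccl4 UMIs and 5 Mreg UMIs in the 25 members. Barcodes with at least 10 Ccl3 UMIs in the other gate groups, a split chosen after the values were seen, shared part of the pattern. The 113 such Siglecf-positive barcodes had 4503 CPM of Ccl4 and 550 CPM of Tnf, but 46.4 CPM of Mreg, 102 CPM of F3 and 687 CPM of Cd274. The 36 such Retnlg-high barcodes had 303 CPM of F3, 157 CPM of Mreg, 931 CPM of Cd274 and 7164 CPM of Cxcl3, with 687 CPM of Camp.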

How the data were processed

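Single-cell values are the authors' deposited UMI counts per gene and barcode of 1 lung and 1 muscle library, made with Cell Ranger 7.0.1 on build GRCm39, per the submitters' processing notes. Strand, introns and cell calling are not given in the sources used here. No deposited barcode held fewer than 500 UMIs, and 64 barcode sequences occur in both libraries. From the counts, CPM were computed over summed barcodes with exact Poisson 95% intervals, shares with Clopper-Pearson intervals and ratios with exact conditional binomial intervals (Python 3.11.15, NumPy 2.4.6, SciPy 1.17.1), checked on simulated data. A group at 0 was set to a floor of 3 counts. PCR duplicates are collapsed by UMI, and intervals hold counting error only. Thinning drew 1000 UMIs per barcode with seed 1. Doublets were left in, with their removal (scored with scikit-learn 1.9.0) as an alternative. Other lung gates were B (Cd79a at least 2, Ms4a1), T (Cd3e, Cd3d), macrophage (C1q at least 5) and epithelial (Epcam, keratins, no Ptprc).

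The 244 members, the 29 gene lists and the 14 marker lists were chosen with earlier results of these data known, so no list is independent support. Named genes are the 15 highest and 15 lowest ratios with at least 100 UMIs, without the 14 genes of the rule, mitochondrial, ribosomal and unnamed gene models, the markers given for the cells, and list members past 2-fold or set beside them. Under names held by 2 gene IDs, 2 list genes were left out, and 2 were not found by name. The muscle library served for counts of barcodes and levels only.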

Additional observations from a re-analysis of the deposited data

How the results depend on the processing

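No paired analysis was possible because each tissue has 1 library and no replicate. The number of Ccl3-high barcodes was 391 (22.3% of the gate) at 5 or more Ccl3 UMIs, 147 (8.37%) at 20 or more, and 190 when no UMI of C1q, Cd79a and Cd3e was allowed. After removal of 556 lung barcodes scored as doublets, which took 16 members, the share of the gate was 13.9%. Genes at least 2-fold lower numbered 719 as reported, 413 with 5 or more Ccl3 UMIs, 1112 with Ccl3 at 0.5% of UMIs, 459 after thinning, 296 against Ccl3-low barcodes, 164 and 1639 with minimums of 100 and 10 UMIs, and 82 with 50 CPM. Higher genes numbered 52 as reported, 26 and 153 with minimums of 100 and 10 UMIs. Of the recomputed log2 ratios of named genes, 961 stayed within the reported interval, 131 fell outside it, and 16 called ones changed sign. Those were Ccl12 (0.28 with 5 or more Ccl3 UMIs, 0.053 with the 0.5% share, 0.17 against Retnlg-high barcodes), Ctsk (0.038 with 5 or more Ccl3 UMIs, 0.17 against Retnlg-high), Mki67 (0.10 as the mean over barcodes, 1.26 thinned, 1.72 against Siglecf-positive), Cybb (0.017), Rab3d and Ciita (both 0.48) after thinning, Stfa1 (0.36) and Ltf (0.68) against Ccl3-low, Ifitm6 (0.25) and Ltf (0.24) against Siglecf-positive, and Ltc4s (0.41) against Retnlg-high. The cause was not tested. Ccl4 ranged from 1.53 to 2.64 and Cd274 from 0.42 to 1.03 over all alternatives, the lysosome median from 0.47 to 0.63 and the hypoxia median from 0.26 to 0.38. TMM factors moved the median of all genes to -0.09. Depth limits single genes, since members hold 726590 UMIs and a gene needs 30 UMIs to be measured. The 50 CPM minimum and the Siglecf-positive and Retnlg-high references were added after the data were seen.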

Other observations

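The summed level of MHC class II genes was lower in Ccl3-high barcodes than in the other gate barcodes. Of 7 measured MHC class II genes all had a log2 ratio below 0 and 2 were at least 2-fold lower, beside 9.49% of all genes. The median was -0.79, or -1.39 to -0.09 under the alternative settings. With a minimum of 50 CPM, 0 of 5 were lower against Siglecf-positive barcodes (median -0.40) and 0 of 5 against Retnlg-high barcodes (-0.20). Against Ccl3-low barcodes 3 of 5 were lower (-1.19). The all-gene medians with that minimum were -0.25, 0.15 and -0.10 in the same order. Cd74, the invariant chain, had 801 CPM in members and 1093 CPM in the others, and H2-Eb1 had 134 CPM and 267 CPM. Siglecf-positive barcodes had 798 CPM of Cd74 and 181 CPM of H2-Eb1. Cd74 was seen in 62.7% of members and 60.2% of the others, and H2-Eb1 in 22.5% and 21.3%. Both are abundant in the B gate, at 10673 CPM of Cd74 and 2199 CPM of H2-Eb1, so free RNA or mixed droplets can give such UMIs, and 1 Ccl3-low barcode held 799 Cd74 UMIs. Their part was not tested. Of 10 measured MHC class I genes 2 were lower, the immunoproteasome subunits Psmb9 (26.1 and 53.7 CPM) and Psmb10 (20.6 and 47.2 CPM), while B2m was level at 1023 CPM and 989 CPM.

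Enzymes of lipid mediators split. Ptgs2, the inducible cyclooxygenase, had 2143 CPM in members and 1356 CPM in the others (log2 ratio 0.66 [0.58 to 0.74]). Leukotriene genes had 734 CPM and 1113 CPM of Alox5ap, 89.5 CPM and 187 CPM of Ltc4s and 24.8 CPM and 53.7 CPM of Lta4h. Ltc4s was highest in Siglecf-positive barcodes (332 CPM), which the rule kept out of the members, and its log2 ratio was 0.41 [-0.13 to 0.96] against Retnlg-high barcodes. Of 11 measured genes 0 were higher and 3 lower, with a median of -0.23. Surface receptors also differed by gene. Ccrl2, an atypical receptor that binds chemerin, had 2311 CPM and 1264 CPM, Clec4e (Mincle, a receptor for mycobacterial glycolipids and dying cells) 1595 CPM and 898 CPM, and Olr1, a scavenger receptor, 285 CPM and 146 CPM, none past 2-fold. Interferon genes went both ways, with 168 CPM and 90.2 CPM of Rsad2 (viperin) but 1422 CPM and 2605 CPM of Ifitm1, and 0 of 17 were past 2-fold. Cybb, the catalytic subunit of the NADPH oxidase, had 46.8 CPM and 94.6 CPM. Its log2 ratio was -1.75 against Retnlg-high barcodes, which the rule kept out. With a minimum of 50 CPM, 0 of 7 oxidase genes were lower against Siglecf-positive or Ccl3-low barcodes. Of 6 measured cell cycle genes 0 were higher and 4 lower, with a median of -1.30, and the whole list summed to 175 CPM in members and 234 CPM in the others. A gene at a low level is counted as measured more easily through the larger group, so the 4 do not show a general fall. With a minimum of 50 CPM, 2 genes were left against each other gate group and 0 were lower. The medians were -0.43 against Siglecf-positive, 0.55 against Retnlg-high (1 higher) and -0.13 against Ccl3-low barcodes.

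Some high ratios rest on a few barcodes. Edn1, the vasoconstrictor endothelin 1, was named after its values were seen and had 35 UMIs in 9 members, 20 of them in 1 barcode, which gives 48.2 CPM in members and 8.65 CPM in the others. Fn1, fibronectin, had 168 CPM and 129.7 CPM, with 62 UMIs in 1 member. Among the 52 higher genes with Ccl3 and Cd274 added, 46 of 54 were placed in RefSeq's gene order, and direct neighbours were Ccl3 with Ccl4, Cd274 with Pdcd1lg2, Hilpda with Fam71f2 and Ifi207 with Ifi204. The search for neighbours was chosen after the values were seen. In the 52 muscle gate barcodes Tnf had 598 CPM (119 UMIs), against 201 CPM of Ccl4 (40 UMIs) and 261 CPM of Cd274 (52 UMIs).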
